A study of Mus musculus with 6 samples.

Results

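The genes described here belong to pulmonary surfactant and to the alveolar type 2 cell that makes it: the surfactant proteins Sftpa1, Sftpb, Sftpc and Sftpd, the processing protease Napsa, the lamellar body and membrane genes Lamp3, Abca3 and Slc34a2, the lysozyme gene Lyz1, and Etv5, a gene for a transcription factor. They were chosen by name, and all 10 were measured among 19938 genes, each by the probe set (the array's set of probes for a transcript) that named this gene alone. Etv5 had a further probe set. Surfactant is a film of lipids and proteins that lowers surface tension in the alveoli. Type 2 cells assemble it in lamellar bodies, secrete it and take much of it up again. Sftpc is, in adult lung, the classical product of type 2 cells, whereas Sftpa1, Sftpb and Sftpd are also made by club cells of the airway, and Lamp3 is also known from mature dendritic cells.

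Larger proximal airways were micro-dissected from frozen, stained sections of the lungs of 9-week-old mice on a mixed C57BL/6 and 129X1 background. The 3 mutants had the genotype Scgb1a1-cre:Foxp1flox/flox:Foxp4flox/flox, in which the promoter of the club cell gene Scgb1a1 drives Cre recombinase against both floxed forkhead genes. The 3 controls carried Scgb1a1-Cre alone, so all 6 samples carried the driver, and Foxp1 and Foxp4 are removed by design from cells with a history of Scgb1a1 expression. Total RNA was amplified and read on Affymetrix mouse gene arrays, 1 per sample. The labels do not state whether the 3 samples of a genotype are 3 mice, and the p-values below then refer only to the spread among samples, part of which may be technical.

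The upper quartile of the arrays lay between 7.83 and 7.89 on the log2 scale, and their medians lay between 5.89 and 5.95. Both were taken over all 35556 probe sets, of which 12146 had no gene named. Foxp1 read 9.24 to 9.34 in mutants and 9.42 to 9.62 in controls, and Foxp4 read 7.77 to 8.49 in mutants and 8.77 to 9.01 in controls. Neither passed the test described below (limma adjusted p = 0.444 and 0.339). For both genes the mutants lay wholly below the controls. The arrays also differed in markers of other cell types. The mean log2 value of 7 B and plasma cell markers was 6.18, 8.22 and 6.47 in mutants 1 to 3, against 6.80, 10.05 and 9.95 in controls 1 to 3. The mean of 8 cardiac muscle markers was 10.11, 11.27 and 8.65 in mutants, against 11.57, 9.16 and 9.85 in controls. Controls 2 and 3 therefore stood high for these lymphoid genes, and control 1 and mutant 2 stood high for cardiac genes and for 8 adipocyte markers (7.33, 8.06 and 6.94 in mutants, against 8.94, 6.62 and 7.14 in controls). Values without control 1 and mutant 2, or without controls 2 and 3, are given beside each member's result. Without control 1 and mutant 2, a setting that called 4.83% of all genes, 7 of 7 B and plasma cell markers, 5 of 7 T and NK cell markers, 2 of 10 type 1 cell markers and 2 of 10 club cell markers also passed. Without controls 2 and 3, 0 genes passed.

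All 60 values of the members lay above the upper quartile of their array, with a lowest value of 8.77 and a highest of 12.76, so transcripts of the alveolar type 2 label were measured well up the scale in both genotypes, although the tissue label is airway. In the comparison of mutants with controls, 9 of 10 members had a higher mean in mutants and 1, Napsa, a lower one. A mean above that of controls was seen in 54.6% of all genes. The median log2 difference of the members was 0.37, against 0.02 over all genes. In 6 of 10 members every mutant array lay above every control array, as did 9.33% of all genes, and in 0 of 10 every mutant array lay below, as in 5.64% of all genes. With limma and Benjamini-Hochberg adjustment over all genes, 0 of 10 members had an adjusted p under 0.05, against 0.266% of all genes (0.236% higher and 0.0301% lower in mutants). At an unadjusted p under 0.05, 5 of 10 members were higher in mutants and 0 lower, against 5.9% and 4.17% of all genes, or 10.1% in either direction. In bulk RNA, fewer cells of a type and less RNA per cell cannot be told apart. The members were chosen with earlier results of these data known, so these counts are a description.

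**Figure D1:**
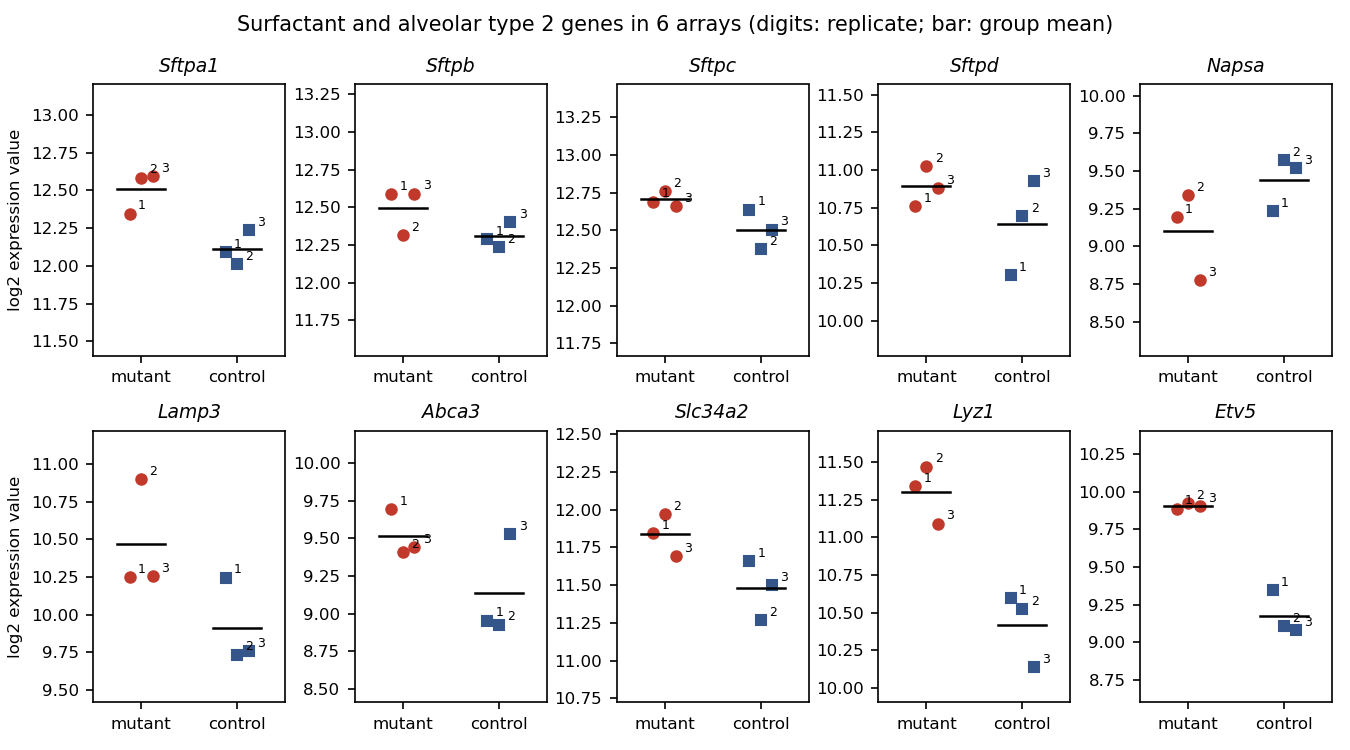
Log2 expression values (vertical axes, each spanning the same number of log2 units) of the 10 members in 3 mutant arrays (red circles) and 3 control arrays (blue squares), with replicate numbers beside the points and group means as bars. Etv5 and Lyz1 show the widest gaps between the groups, and Napsa has a lower mean in mutants.

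Among the surfactant proteins, Sftpa1 encodes surfactant protein A, a collectin that binds microbes and surfactant lipid. It read 12.35, 12.59 and 12.59 in mutants 1 to 3, against 12.09, 12.01 and 12.24 in controls 1 to 3. Each mutant array lay above each control array, with a gap of 0.11 between the groups. The log2 difference was 0.40 (SE 0.11; 95% interval 0.14 to 0.65), a 1.32-fold higher level as measured, and it did not pass (limma adjusted p = 0.306). Permuting the array labels exactly gave a two-sided p of 0.1, the smallest that this number of arrays allows. The same p applied to each of the 6 members whose groups did not overlap, and those of the other 4 were 0.2 or 0.3. Sftpa1 had a log2 difference of 0.35 without control 1 and mutant 2 and of 0.42 without controls 2 and 3.

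Sftpb encodes surfactant protein B, a small hydrophobic protein without which lamellar bodies do not form properly. It read 12.58, 12.32 and 12.59 in mutants, against 12.29, 12.24 and 12.40 in controls. Mutant 2 lay among the controls, so the groups overlapped. Mutant minus control came to 0.19 (SE 0.11; 95% interval -0.07 to 0.44; limma adjusted p = 0.634), and it came to 0.27 without control 1 and mutant 2 and to 0.21 without controls 2 and 3.

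Sftpc encodes surfactant protein C, the membrane-spanning lipopeptide of surfactant. Mutant arrays read 12.69, 12.76 and 12.66, against 12.64, 12.37 and 12.51 in control arrays. The groups did not overlap, but the lowest mutant lay only 0.026 above the highest control. Sftpc had a log2 difference of 0.20 (SE 0.094; 95% interval -0.03 to 0.43; limma adjusted p = 0.558), with values of 0.24 without control 1 and mutant 2 and of 0.068 without controls 2 and 3.

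Sftpd encodes surfactant protein D, the second collectin of the alveolar lining. It read 10.76, 11.03 and 10.88 in mutants, against 10.30, 10.69 and 10.93 in controls. Control 1 was the lowest array and control 3 lay among the mutants. On the log2 scale mutants and controls differed by 0.25 (SE 0.17; 95% interval -0.16 to 0.66; limma adjusted p = 0.699). That value was 0.080 without control 1, 0.39 without control 3, 0.076 with arrays weighted by how closely they follow their group (array weights), 0.01 without control 1 and mutant 2 and 0.59 without controls 2 and 3.

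Napsa encodes napsin A, an aspartic protease that takes part in processing the precursors of surfactant proteins B and C. It read 9.20, 9.34 and 8.77 in mutants, against 9.23, 9.57 and 9.52 in controls. Mutant 3 was the lowest array, and mutant 2 lay above control 1. Napsa had a log2 difference of -0.34 (SE 0.17; 95% interval -0.75 to 0.08; limma adjusted p = 0.585), and it was -0.17 without mutant 3, -0.53 with array weights, -0.56 without control 1 and mutant 2, and -0.13 without controls 2 and 3.

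**Figure D2:**
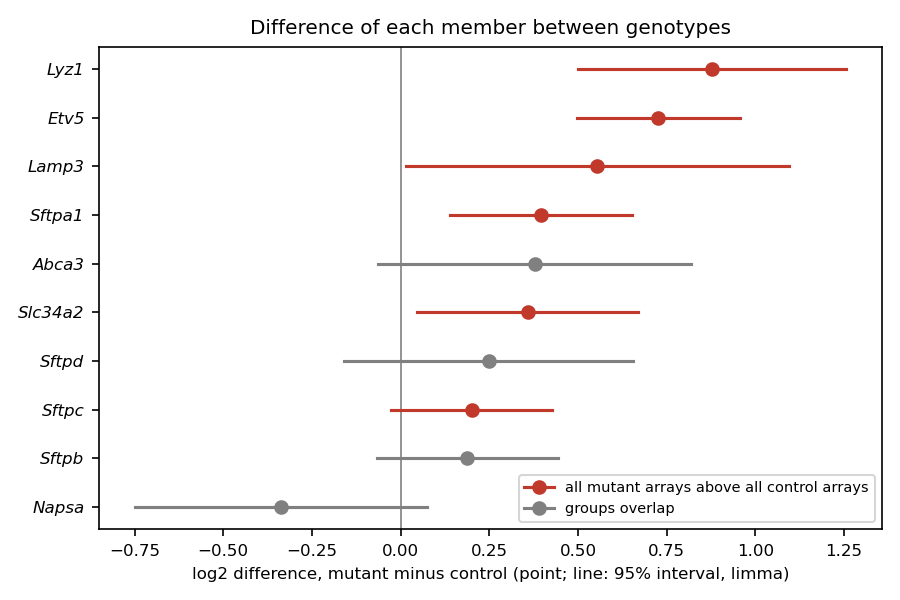
Log2 difference of each member, mutant minus control (horizontal axis), with the point at the estimate and the line spanning limma's 95% interval over 3 mutant and 3 control arrays. Red marks the 6 members whose mutant arrays all lay above all control arrays. The intervals of Lyz1, Etv5, Lamp3, Sftpa1 and Slc34a2 lie above 0.

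Of the lamellar body and membrane genes, Lamp3 encodes a lysosome-associated membrane glycoprotein found on lamellar bodies. Its values were 10.25, 10.90 and 10.26 in mutants, against 10.25, 9.74 and 9.76 in controls. Mutant 2 stood highest, and mutant 1 exceeded control 1 by only 0.003, so the separation of the groups rests on the third decimal. Lamp3 had a log2 difference of 0.55 (SE 0.22; 95% interval 0.01 to 1.10; limma adjusted p = 0.485), and it was 0.34 without mutant 2 and 0.22 without controls 2 and 3. Without control 1 and mutant 2 it was 0.50 and passed (limma adjusted p = 0.0481).

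Abca3 encodes the transporter that moves phospholipid into lamellar bodies. It read 9.69, 9.41 and 9.44 in mutants, against 8.95, 8.93 and 9.53 in controls. Control 3 lay among the mutants and the other controls lay below them. For Abca3 the log2 difference was 0.38 (SE 0.18; 95% interval -0.06 to 0.82; limma adjusted p = 0.567), and it was 0.57 without control 3, 0.18 with array weights, 0.34 without control 1 and mutant 2 and 0.56 without controls 2 and 3.

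Slc34a2 encodes the apical sodium-phosphate cotransporter of type 2 cells. Mutant arrays read 11.84, 11.97 and 11.69, against 11.66, 11.27 and 11.50 in control arrays. The groups did not overlap, and the gap between mutant 3 and control 1 was 0.030. Slc34a2 had a log2 difference of 0.36 (SE 0.13; 95% interval 0.05 to 0.67; limma adjusted p = 0.439), with values of 0.38 without control 1 and mutant 2 and of 0.17 without controls 2 and 3.

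Lyz1 encodes an antibacterial lysozyme. It had the largest log2 difference of the 10 members, with values of 11.34, 11.47 and 11.09 in mutants, against 10.60, 10.52 and 10.14 in controls. The groups were separated by 0.49. The log2 difference was 0.88 (SE 0.16; 95% interval 0.50 to 1.26), a 1.84-fold higher level as measured, and it did not pass on all arrays (limma adjusted p = 0.126). It passed with array weights (0.92, limma adjusted p = 0.0426), where 1.46% of all genes were called, and without control 1 and mutant 2 (0.88, limma adjusted p = 0.0458). The array weights were lowest for mutant 2 (0.484) and control 1 (0.505), so for every gene these settings are not separate checks. Without controls 2 and 3 the log2 difference of Lyz1 was 0.70.

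The neighbouring gene Lyz2, the lysozyme of macrophages that type 2 cells also express, is a close relative of Lyz1. Lyz2 read 12.62, 12.78 and 12.55 in mutants, against 12.74, 12.51 and 12.65 in controls, and its log2 difference was 0.02 (SE 0.10; 95% interval -0.23 to 0.26), turning to -0.05 with repeated quantile normalisation. Within each array, Lyz1 minus Lyz2 was -1.28, -1.32 and -1.46 in mutants, against -2.14, -1.99 and -2.51 in controls. These groups did not overlap, and the difference between the genes' changes was 0.86 on the log2 scale (exact two-sided permutation p = 0.1, the smallest value possible). The probe sequences were not used here, so signal that transcripts of the pair share could not be separated.

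Etv5 encodes an ETS transcription factor that acts downstream of fibroblast growth factor and helps to maintain type 2 cells. Its main probe set read 9.89, 9.92 and 9.90 in mutants, against 9.34, 9.11 and 9.08 in controls. The mutant arrays lay within a narrow range, with an SD of 0.017 against 0.14 in controls, and the groups were separated by 0.54. Etv5 had a log2 difference of 0.73 (SE 0.096; 95% interval 0.50 to 0.96), a 1.65-fold higher level as measured, with an adjusted p just above the threshold (limma adjusted p = 0.0581). The further probe set read 8.52, 8.65 and 8.73 in mutants, against 8.03, 8.13 and 7.76 in controls. In a fit over all probe sets with 1 gene it had a log2 difference of 0.66 (SE 0.12; limma adjusted p = 0.132), so both probe sets of Etv5 separated the groups in the same direction. The main probe set passed with an intensity trend and robust variance (limma adjusted p = 0.0474; 0.416% of all genes called), with array weights (0.0098), without control 1 (log2 difference 0.81, limma adjusted p = 0.0182; 1.95% called) and without control 1 and mutant 2 (0.80, limma adjusted p = 0.0111). Without controls 2 and 3 it was 0.56 and did not pass (limma adjusted p = 0.405). Over all 15 other settings its limma adjusted p ranged from 0.0098 to 0.405.

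**Figure D3:**
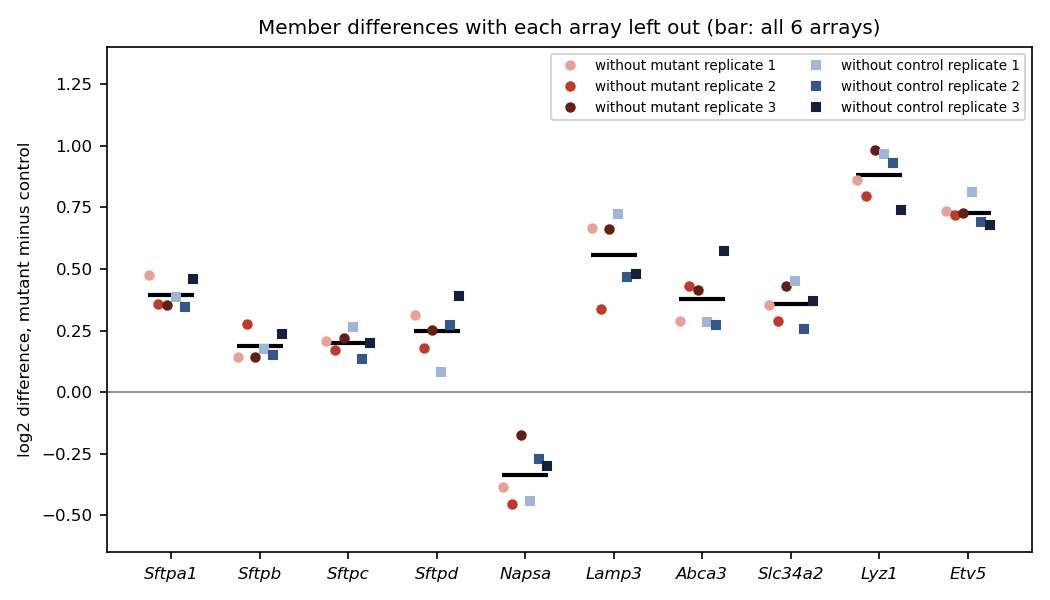
Log2 difference of each member, mutant minus control (vertical axis), with all 6 arrays (black bar) and with each mutant array (red circles) or control array (blue squares) left out in turn. All estimates of a member kept one sign, and Lamp3 moved most, from 0.34 without mutant 2 up to 0.72 without control 1.

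For 7 of 10 members RefSeq's promoter table for GRCm38.p6 held a sequence, and the 250 bases before the annotated start were searched on both strands for short motifs. The windows below are those of the members whose groups did not overlap and that the table holds, with Lyz2 beside Lyz1. Capitals mark every match to the letters searched: CTCAAG for NKX2-1, the lung lineage factor; TGTTTAC or TGTTTGC for forkhead factors, the family of the deleted genes; GGAAGT for ETS factors; and TTGCNNAA for C/EBP factors. All run 5′ to 3′ on the gene's own strand.
Etv5, upstream start (chr16:22439571-22439820, minus strand): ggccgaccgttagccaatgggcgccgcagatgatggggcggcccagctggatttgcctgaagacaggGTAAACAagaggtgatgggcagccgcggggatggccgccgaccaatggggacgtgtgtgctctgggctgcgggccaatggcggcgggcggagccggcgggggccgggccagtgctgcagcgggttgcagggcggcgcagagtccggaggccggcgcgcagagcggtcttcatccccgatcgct
Etv5, downstream start (chr16:22438369-22438618, minus strand): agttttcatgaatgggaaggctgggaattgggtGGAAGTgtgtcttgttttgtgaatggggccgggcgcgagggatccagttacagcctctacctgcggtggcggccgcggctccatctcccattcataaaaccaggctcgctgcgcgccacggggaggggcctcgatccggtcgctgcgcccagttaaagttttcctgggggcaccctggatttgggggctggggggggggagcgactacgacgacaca
Lyz1 (chr10:117292869-117293118, minus strand): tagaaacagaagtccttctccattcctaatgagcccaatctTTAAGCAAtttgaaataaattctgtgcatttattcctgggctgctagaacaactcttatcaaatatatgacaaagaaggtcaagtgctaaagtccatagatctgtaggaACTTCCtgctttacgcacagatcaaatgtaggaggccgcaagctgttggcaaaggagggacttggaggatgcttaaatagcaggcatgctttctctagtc
Lyz2 (chr10:117282273-117282522, minus strand): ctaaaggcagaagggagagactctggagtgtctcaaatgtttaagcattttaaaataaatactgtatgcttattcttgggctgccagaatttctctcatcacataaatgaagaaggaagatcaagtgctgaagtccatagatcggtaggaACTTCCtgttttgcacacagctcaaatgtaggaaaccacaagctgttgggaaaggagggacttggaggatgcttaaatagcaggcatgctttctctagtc
Sftpa1 (chr14:41131538-41131787, plus strand): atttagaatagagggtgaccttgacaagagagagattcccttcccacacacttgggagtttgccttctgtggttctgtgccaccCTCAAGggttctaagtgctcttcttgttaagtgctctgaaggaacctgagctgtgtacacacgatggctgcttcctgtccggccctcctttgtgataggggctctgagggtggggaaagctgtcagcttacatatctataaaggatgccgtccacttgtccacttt
Lamp3 (chr16:19706366-19706615, minus strand): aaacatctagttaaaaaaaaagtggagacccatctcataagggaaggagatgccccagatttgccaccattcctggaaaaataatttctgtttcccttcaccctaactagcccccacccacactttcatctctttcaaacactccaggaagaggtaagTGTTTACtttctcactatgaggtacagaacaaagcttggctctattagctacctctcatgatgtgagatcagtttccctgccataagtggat
Slc34a2 (chr5:53049103-53049352, plus strand): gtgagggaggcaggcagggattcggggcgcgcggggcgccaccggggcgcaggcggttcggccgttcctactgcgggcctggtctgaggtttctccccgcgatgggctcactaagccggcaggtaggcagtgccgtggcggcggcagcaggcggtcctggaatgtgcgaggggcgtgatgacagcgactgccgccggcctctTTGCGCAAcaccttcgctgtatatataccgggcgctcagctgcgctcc

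The 7 members had 8 windows, because Etv5 had 2. Members were counted by gene and the shares of all windows by window, so Etv5 had more room for a match. The forkhead letters stood in 3 of 7 members with a window, Sftpb, Lamp3 and the upstream start of Etv5, and in 7.29% of all 32851 windows of the same length. The NKX2-1 letters stood in 2 of 7, at 100 and 15 bases before the start of Sftpb and at 166 bases before that of Sftpa1, and in 13.3% of all windows. ETS letters stood in 2 of 7, Lyz1 and the downstream start of Etv5, and in 19.7% of all windows. C/EBP letters also stood in 2 of 7, Slc34a2 and Lyz1, and in 9.56% of all windows. The window of Abca3 held none of these letters. No matches overlapped. The ETS match of Lyz1 and that of Lyz2 lay at the same place, 100 bases before the start, while the C/EBP letters stood in Lyz1 and not in Lyz2. Without gaps, the last 100 bases of the Lyz1 and Lyz2 windows were identical at 92 of 100 positions and the bases before them at 60 of 150. Bases were compared by position alone, so a base missing from either sequence lowers the count for all bases before it. A match describes the letters and is not evidence of binding.

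Apart from Napsa, the members tended to vary together across the arrays, some pairs only weakly. Counting each member from its own mean over the 6 arrays, 8, 9 and 9 of 10 members were above it in mutants 1 to 3, against 3, 1 and 3 in controls 1 to 3. The mean of these deviations was 0.17, 0.28 and 0.10 in mutants, against -0.16, -0.25 and -0.13 in controls, on the log2 scale. Mutant 2 was the highest array for 6 members and control 2 the lowest for 6. Across the 6 arrays, Sftpc and Slc34a2 had the most similar profiles (Pearson r = 0.98, n = 6 arrays), followed by Lyz1 and Etv5 (0.95). All 36 pairs among the 9 members other than Napsa had an r above 0, with a median of 0.66 and a lowest value of 0.094 (Sftpb and Lamp3). All 9 pairs with Napsa had an r below 0, from -0.72 with Sftpb to -0.007 with Sftpd. These values share the genotype difference and the 6 libraries and are given as a description.

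**Figure D4:**
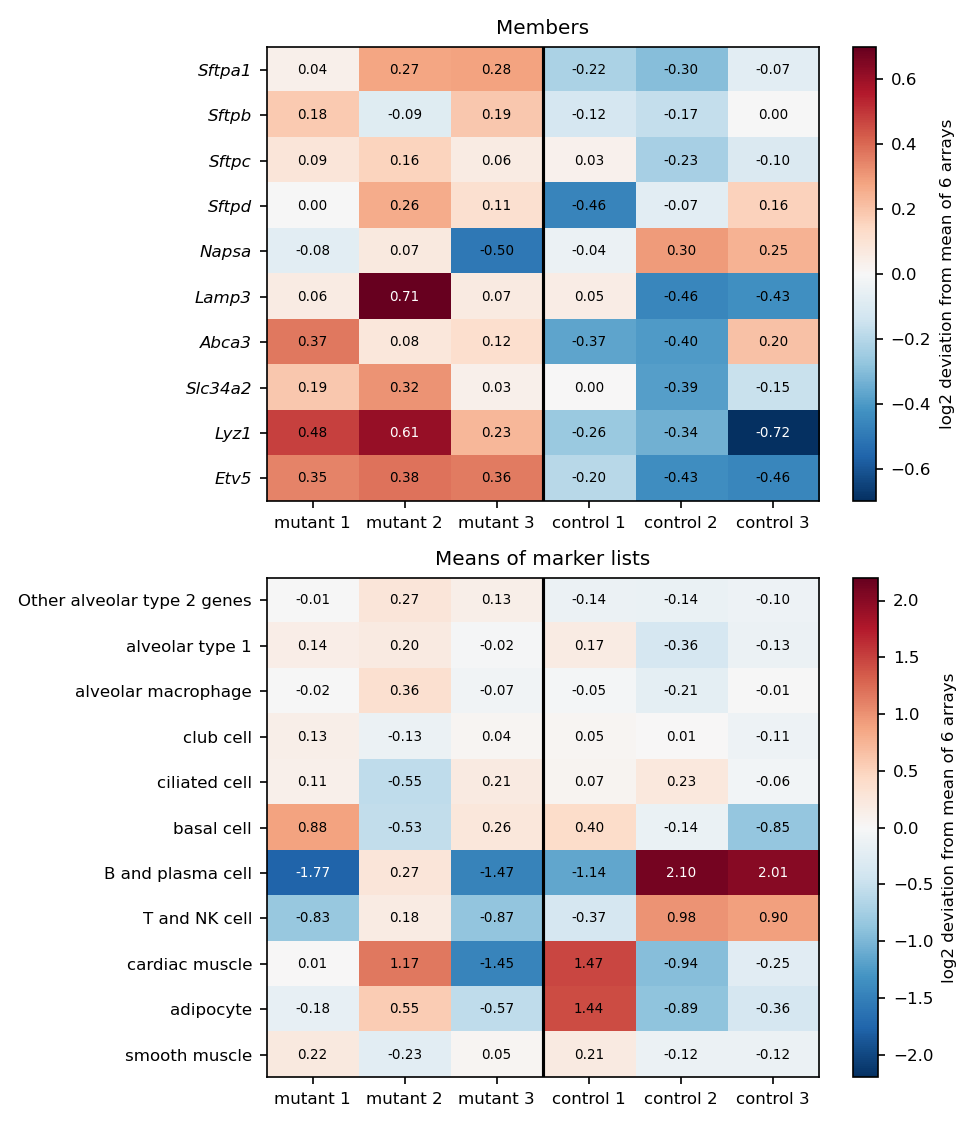
Log2 deviation from the mean of the 6 arrays for each member (upper panel) and for the mean of each marker list (lower panel, with a wider colour range), with mutants 1 to 3 in the left columns and controls 1 to 3 in the right columns. Member values are mostly above 0 in mutants and below 0 in controls, whereas the lymphoid rows are highest in controls 2 and 3 and the cardiac and adipocyte rows in control 1 and mutant 2.

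Genes whose profile was most like the mean of the members were sought among 3177 genes outside the lists with an SD of at least 0.3 over the arrays. The 5 closest were Fancb, a component of the Fanconi anaemia repair complex (r = 0.99), Rai14, an actin-associated protein (0.98), Piga, which acts in GPI anchor synthesis (0.98), the interferon-inducible GTPase gene Gbp2b (0.98) and Cd207, which encodes langerin (0.98). An r of at least 0.9 was reached by 88 of these genes, or 2.77%. Because the mean of the members itself separated the genotypes, a difference between them was favoured in genes chosen for following it, and the values below are a description. Fancb read 5.47, 5.61 and 5.39 in mutants, against 4.67, 4.58 and 4.71 in controls (log2 difference 0.84, SE 0.090; limma adjusted p = 0.0264 over all genes). All these values lay below the array medians of 5.89 to 5.95, and a filter on the dimmest genes left Fancb out. When any single array other than control 1 was left out, its log2 difference was 0.78 to 0.89 and its adjusted p from limma 0.0718 to 0.135. Without controls 2 and 3 its log2 difference was 0.83. The largest difference of the 5 was that of Gbp2b, with 7.37, 8.54 and 7.16 in mutants, against 4.97, 5.13 and 5.26 in controls (log2 difference 2.57, SE 0.35; limma adjusted p = 0.0610), and it passed in 6 of 15 other settings.

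A further list of 17 measured genes known from type 2 cells, not used as members, was examined beside them. Its median log2 difference was 0.25, with 11 of 17 genes above 0, against 54.6% of all genes. In 7 the mutant arrays all lay above the controls and in 1 all below, against 9.33% and 5.64% of all genes. Lrp2, which encodes the endocytic receptor megalin, was the only one of the 17 to pass, against 0.266% of all genes. It read 7.20, 7.46 and 7.31 in mutants, against 6.49, 6.44 and 6.30 in controls (log2 difference 0.91, SE 0.10, limma adjusted p = 0.0306). Its call was lost when mutant 1, 2 or 3 or control 2 or 3 was left out (limma adjusted p 0.0753 to 0.175), with log2 differences between 0.84 and 0.98. Leaving out these arrays in turn called 0.0802%, 0.12%, 0.0752%, 0.0451% and 0.0502% of all genes. The call was also lost with the replicate number as a block (limma adjusted p = 0.208), where 0 genes were called. Without controls 2 and 3 the log2 difference of Lrp2 was 0.84.

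S100g, the gene of a small cytosolic calcium-binding protein, had the largest difference of this list. It read 11.53, 12.005 and 11.23 in mutants, against 10.14, 9.87 and 10.23 in controls, a gap of 1.00 between the groups. The log2 difference was 1.51 (SE 0.21), or 2.85-fold as measured, and it did not pass on all arrays (limma adjusted p = 0.0626) but did in 5 of 15 other settings (limma adjusted p 0.0129 to 0.045). These were a filter on the dimmest genes, array weights, an intensity trend with robust variance, and leaving out control 1 with or without mutant 2, with log2 differences between 1.28 and 1.54. Slc26a9, an epithelial chloride transporter, had a log2 difference of 1.17 (SE 0.21; limma adjusted p = 0.131) with groups 0.51 apart. Wif1, a secreted Wnt inhibitor, had the opposite direction, with 5.12, 5.04 and 5.05 in mutants and 5.87, 5.80 and 5.58 in controls (log2 difference -0.68, SE 0.099, limma adjusted p = 0.0773). It passed with array weights (-0.60, limma adjusted p = 0.0373). All values of Wif1 lay below the array medians of 5.89 to 5.95.

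The lipid and lamellar body list had a median log2 difference of 0.10 over 28 genes, with 20 above 0, against 54.6% of all genes. None passed the threshold. At an unadjusted p under 0.05 there were 6, 4 of them higher, against 10.1% and 5.9% of all genes. The 4 genes with the smallest p were Cept1, an enzyme of the last step of phosphatidylcholine synthesis (log2 difference 0.49, limma adjusted p = 0.119), the fatty acid elongase gene Elovl1 (0.31), the choline kinase gene Chka (0.44) and the fatty acid binding protein gene Fabp5 (-0.79). In 2 of the 28 genes all mutant arrays lay below all controls, against 5.64% of all genes. In 7 all mutant arrays lay above, against 9.33% of all genes, and Cept1, Elovl1 and Chka were among these. Cept1, for example, read 9.04, 9.21 and 9.18 in mutants, against 8.70, 8.60 and 8.68 in controls. Cept1 passed with array weights (0.48, limma adjusted p = 0.0366), and Fabp5 without control 1 and mutant 2 (-1.21, limma adjusted p = 0.0071). Each passed in 1 of 15 other settings, over which the log2 difference of Fabp5 ranged from -1.21 to -0.37.

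Transcription factors of type 2 cells had a median of 0.04 over 15 genes, and none passed, also at an unadjusted p under 0.05. Nkx2-1, which drives surfactant gene transcription, read 8.30, 8.19 and 8.45 in mutants, against 7.90, 8.10 and 8.21 in controls (log2 difference 0.24, SE 0.11; limma adjusted p = 0.552). Foxa2 (0.28), Srebf1 (-0.19) and Cebpa (0.20), further regulators of lung epithelium and lipid synthesis, also had groups that overlapped.

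The list set around the fibroblast growth factor pathway in which Etv5 acts also held Bmp4, Egfr and Erbb3, genes of other signalling pathways. Its median log2 difference was 0.19 over 15 genes. Of these, 13 were above 0, against 54.6% of all genes. None passed the threshold. Bmp4 and Erbb3 were the 2 with an unadjusted p under 0.05, both higher, against 5.9% of all genes. By array, the mean of this list was 8.02, 8.07 and 8.01 in mutants, against 8.05, 7.73 and 7.69 in controls, so control 1 lay among the mutants. Bmp4, a growth factor of the lung mesenchyme and epithelium, stood at 9.18, 9.03 and 9.23 in mutants, against 8.58, 8.05 and 8.40 in controls (log2 difference 0.81, SE 0.15; limma adjusted p = 0.138), and passed with array weights (0.84, limma adjusted p = 0.0297), without control 1 (0.92, 0.0393) and without control 1 and mutant 2 (0.98, 0.0205). In 3 of the 15 genes all mutant arrays lay above all controls and in 0 all below, against 9.33% and 5.64% of all genes. The receptor gene Erbb3 (0.42) and the feedback phosphatase gene Dusp6 (0.20) had groups that did not overlap, by only 0.0022 for Dusp6, while those of the feedback inhibitor gene Spred1 (0.45) did. Spred1 passed without control 1 and mutant 2 (0.54, limma adjusted p = 0.0447), in 1 of 15 other settings. Its log2 difference ranged over those settings from 0.053 to 0.64. For Spred1, control 1 read 8.90 against a mutant mean of 8.95. Without controls 2 and 3 the log2 difference of Bmp4 was 0.57. Surfactant uptake and clearance genes had a median of -0.25 over 11 genes, with none past the threshold. Against 5.9% of all genes higher and 4.17% lower, 1 of the 11 stood in each direction at an unadjusted p under 0.05. These were Bach2, a repressor needed by alveolar macrophages and also known from lymphocytes (-0.84, limma adjusted p = 0.270; 3 of 15 other settings passed, 0.0083 to 0.0441), and Pparg, a regulator of macrophage lipid handling (0.57). The lymphoid markers that move with controls 2 and 3 stand beside this list, and their part in its values was not tested.

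**Figure D5:**
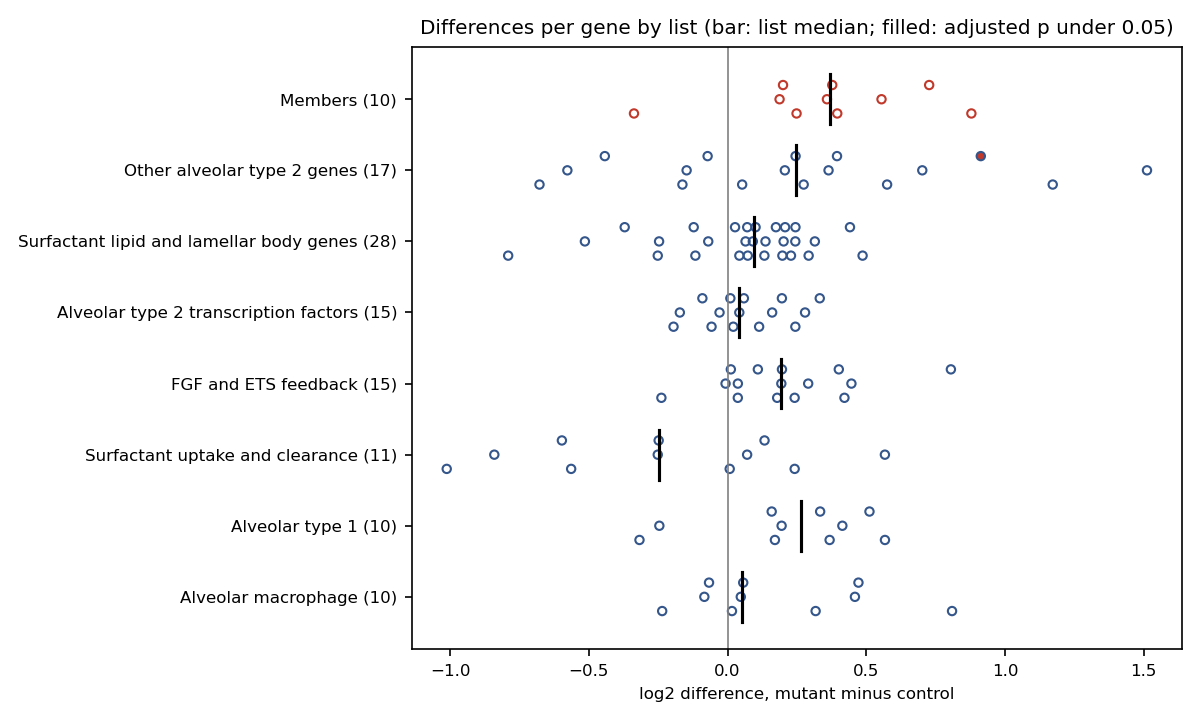
Log2 difference, mutant minus control (horizontal axis), of each gene of the members and of 7 further lists, with the number of measured genes in brackets and the list median as a black bar. Lrp2, at 0.91 in the list of other type 2 genes, is the filled point and the only gene shown past the threshold.

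Markers of alveolar type 1 cells, which line the same alveoli, had a median log2 difference of 0.26 over 10 genes. Of these, 8 were above 0, against 54.6% of all genes. In 1 all mutant arrays lay above all controls, against 9.33% of all genes. None passed the threshold, and 3 had an unadjusted p under 0.05, all higher, against 5.9% of all genes. The smallest p values were those of Lmo7 (0.41), Pdpn (0.57) and Aqp5 (0.51). By array, the mean of these markers was 10.09, 10.15 and 9.93 in mutants, against 10.12, 9.59 and 9.82 in controls, so control 1 lay among the mutants. The mean of the 10 members was 11.06, 11.17 and 10.99 in mutants, against 10.74, 10.65 and 10.76 in controls, where the groups did not overlap. Without controls 2 and 3 the type 1 median was 0.02 and the members' median was 0.32. Without control 1 and mutant 2 they were 0.25 and 0.34, and 2 type 1 markers passed in that setting, Pdpn (log2 difference 0.91, limma adjusted p = 0.0085) and Aqp5 (0.81, limma adjusted p = 0.0176). Across the 6 arrays, the mean of the type 1 markers had a Pearson r of 0.69 with the mean of the members. The mean of the alveolar macrophage markers had an r of 0.76, and those of the other cell type lists lay between -0.58 and 0.19. The part of alveolar tissue carried with the airway in the members' values was not tested.

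Alveolar macrophage markers had a median of 0.05 over 10 genes, with none past the threshold. Their array means were 8.87, 9.24 and 8.81 in mutants, against 8.84, 8.68 and 8.87 in controls. Chil3, a chitinase-like protein of these cells, had the smallest p of the list (log2 difference 0.81, limma adjusted p = 0.413), and mutant 2, the highest array of 6 members, was also the highest for Chil3 at 11.36. Of the airway lists, club cell markers had a median of 0.16 over 10 genes, with 7 above 0 (all genes: 54.6%). All mutant arrays lay above all controls in 4 of these markers (all genes: 9.33%). At an unadjusted p under 0.05, 3 of them were higher (all genes: 5.9%). Their array means were 11.29, 11.03 and 11.21 in mutants, against 11.21, 11.18 and 11.06 in controls. Gabrp, a receptor subunit gene, had the smallest p of them, with 11.92, 11.81 and 12.04 in mutants, against 11.35, 11.43 and 11.44 in controls (log2 difference 0.52, SE 0.089; limma adjusted p = 0.119). It passed with array weights (0.55, limma adjusted p = 0.0302) and without control 1 and mutant 2 (0.55, limma adjusted p = 0.0451). Medians were -0.12 over 8 ciliated cell markers and 0.34 over 6 basal cell markers. Smooth muscle markers had a median of 0.03, cardiac muscle markers -0.19, adipocyte markers -0.12, B and plasma cell markers -1.94 and T and NK cell markers -1.46, and no gene of these lists passed on all arrays. All 7 B and plasma cell markers and all 7 T and NK cell markers had a lower mean in mutants. Scgb1a1, whose promoter drives Cre, read 12.53, 12.58 and 12.50 in mutants, against 12.41, 12.13 and 12.33 in controls (log2 difference 0.25, SE 0.097; limma adjusted p = 0.476). The part of these cell types in the members' values was not tested.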

How the data were processed

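Per the submitters' processing notes, which name oligo, RMA and limma without versions, the deposited table holds a log2 value for each probe set on each array. RMA subtracts background, brings the arrays to one distribution and combines probes, which shrinks differences of dim probe sets. No detection calls or scan times were used here, so no batch was tested, and precision rests on the number of arrays.

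Of 35556 rows, 21789 had exactly 1 gene in the platform annotation. For each of 19938 genes the row of highest mean was kept. No pair of arrays held identical values. Genotypes were compared in limma 3.58.1 (R 4.3.3; lmFit and eBayes, genotype as the only term, no filter), two-sided, with Benjamini-Hochberg adjustment over all genes and a threshold of 0.05. The procedure was tested on simulated data, where it recovered 86% of 100 genes changed 2-fold and 97% of 100 changed 8-fold. It also called 14 unchanged genes. The simulated noise was independent between genes, so the test does not cover shifts of whole marker lists between arrays. Single genes also had an exact permutation test. The members, lists, motifs and alternatives were chosen with earlier results of these data known. Genes named were all members, Lyz2, Foxp1 and Foxp4, up to 4 genes of smallest p in each surfactant list, up to 3 in each marker list, and the 5 genes most alike. In the lists, 10 names had no row of their own, and Abcg1 stands in a pair of lists. The alternatives tried were a replicate block, median centring, a second quantile normalisation, a filter on the dimmest genes, array weights, an intensity trend with robust variance, the mean of a gene's rows, and leaving out arrays. Arrays with the same replicate number did not deviate together, so the numbers were not used as pairs.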

Additional observations from a re-analysis of the deposited data

How the results depend on the processing

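Among 15 other settings, the log2 difference of every member kept its sign. The members called, 0 on all arrays, were 2 with array weights (Lyz1 and Etv5), 1 with an intensity trend and robust variance (Etv5), 3 without control 1 and mutant 2 (Lamp3, Lyz1 and Etv5), and 0 to 1 when single arrays were left out. The members' median of 0.37 was 0.25 with array weights and 0.27 to 0.42 when single arrays were left out. Genes called over all genes, 53 on all arrays, were 0 with the replicate block, 291 with array weights, 83 with an intensity trend and robust variance, 963 without control 1 and mutant 2, 0 without controls 2 and 3, and 9 to 388 when single arrays were left out. The cause of these shifts was not tested. Under the replicate block, which rests on shared numbers only (correlations of same-numbered deviations 0.136, -0.091 and -0.04), 0 members passed, the median was 0.37, and Etv5 had a limma adjusted p of 0.262. Over 68 genes chosen by the naming rule, not all of which are described above, 1014 values under other settings held 44 that passed where the value on all arrays had not and 14 that lost their call. No called value changed sign, and 27 uncalled ones did, Lyz2 and Krt15 among them. Repeated quantile normalisation and median centring moved the members' median to 0.36 and 0.40. Without controls 2 and 3, the lone control is assumed to vary like the mutants. With 3 arrays a group, the 95% intervals of Sftpb, Sftpc, Sftpd, Abca3 and Napsa include 0.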
